A study of Mus musculus with 8 samples.

Results

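The genes described here are 9 fatty acid desaturases and elongases, Scd1, Scd2, Fads1, Fads2, Elovl1, Elovl2, Elovl3, Elovl5 and Elovl6, taken as every probe set on the array whose annotated symbol is one of these names. They account for 21 of 45101 probe sets and for 9 of 18193 named genes. RNA was taken from the livers of 5 POMCMfn2KO mice and 3 control mice, 1 array per mouse, and the single comparison is POMCMfn2KO against control. The name of the POMCMfn2KO line stands for loss of the mitochondrial fusion gene Mfn2 from neurons that express pro-opiomelanocortin, and the controls are labelled wild type. Both groups were 6 weeks old, shared a mixed C57Bl/6J, FVB/N and 129 background and ate standard chow, with light for 12 h and darkness for 12 h. Sex, time of collection, fasting state, batch and the promoter that drives the deletion are not given in the labels. The samples of a group are called biological replicates there.

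Desaturases place double bonds into fatty acids bound to coenzyme A, and elongases catalyse the first, rate-setting step that lengthens them in the endoplasmic reticulum. In liver these enzymes turn the palmitate made by lipogenesis into palmitoleate, stearate and oleate, and turn the essential fatty acids of the diet into arachidonic and docosahexaenoic acid. SREBP1c, LXR and PPARa are the transcription factors best known for driving many of these genes in mouse liver.

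All levels below are log2 values, and all changes are log2 differences, POMCMfn2KO minus control. Fits were made with limma on the whole table, genes with a mean level below 5.80 (the median of all probe sets) were left out as dim, and a gene is said to have risen or fallen where the adjusted p was under 0.05. Each gene was tested on its brightest probe set. Of the 9 genes, 2 rose (Elovl2 and Elovl6), 1 fell (Scd1) and 6 did not pass. Over all 11986 genes tested, 7.02% rose and 10.9% fell, 18.0% in all. The groups were fully separated for 4 of the 9 genes, Elovl2 and Elovl6 above the controls and Scd1 and Elovl1 below them, against 28.5% of all genes tested. The median absolute change was 0.40 among the 9 genes and 0.14 among all genes, while the median signed change was -0.05 and -0.02. The 9 genes were chosen with earlier results of these data known. These comparisons, and those of their probe sets below, therefore do not test the set.

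Mfn2 itself was at 9.98, 9.37, 9.52, 9.68 and 9.48 in POMCMfn2KO livers 1 to 5, and at 9.84, 9.83 and 9.97 in the controls (-0.27, adjusted p = 0.169). The deletion lies in neurons, so whole-liver RNA does not check the genotype labels. Mfn2 passed only without POMCMfn2KO 1 (-0.37, adjusted p = 0.0167). The 10 hepatocyte markers matched averaged between 14.54 and 14.67 in POMCMfn2KO and between 14.53 and 14.54 in controls. Of these 10, 1 rose (Cps1 by 0.31, adjusted p = 0.0264) and 0 fell. Of 14 pancreatic acinar markers, the mean was 10.25 and 10.41 in POMCMfn2KO 2 and 3, 6.19 to 6.47 in the other POMCMfn2KO livers and 6.21 to 6.27 in controls, so results below are given without these arrays where that changes them. The part of acinar RNA in these results was not tested. Of markers of other liver cells, 2 of 7 endothelial genes rose (Stab2 by 0.55 and Eng by 0.24), while 0 of 8 Kupffer cell and leukocyte genes and 0 of 8 stellate cell and cholangiocyte genes passed. The Kupffer cell and leukocyte list averaged 7.64 to 8.25 in POMCMfn2KO and 8.14 to 8.38 in controls (median change -0.29), and its dim neutrophil marker S100a8 was at 4.36 to 5.24 in POMCMfn2KO and 6.18 to 6.45 in controls. In bulk liver, fewer cells of a type and less RNA per cell cannot be told apart.

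**Figure D1:**
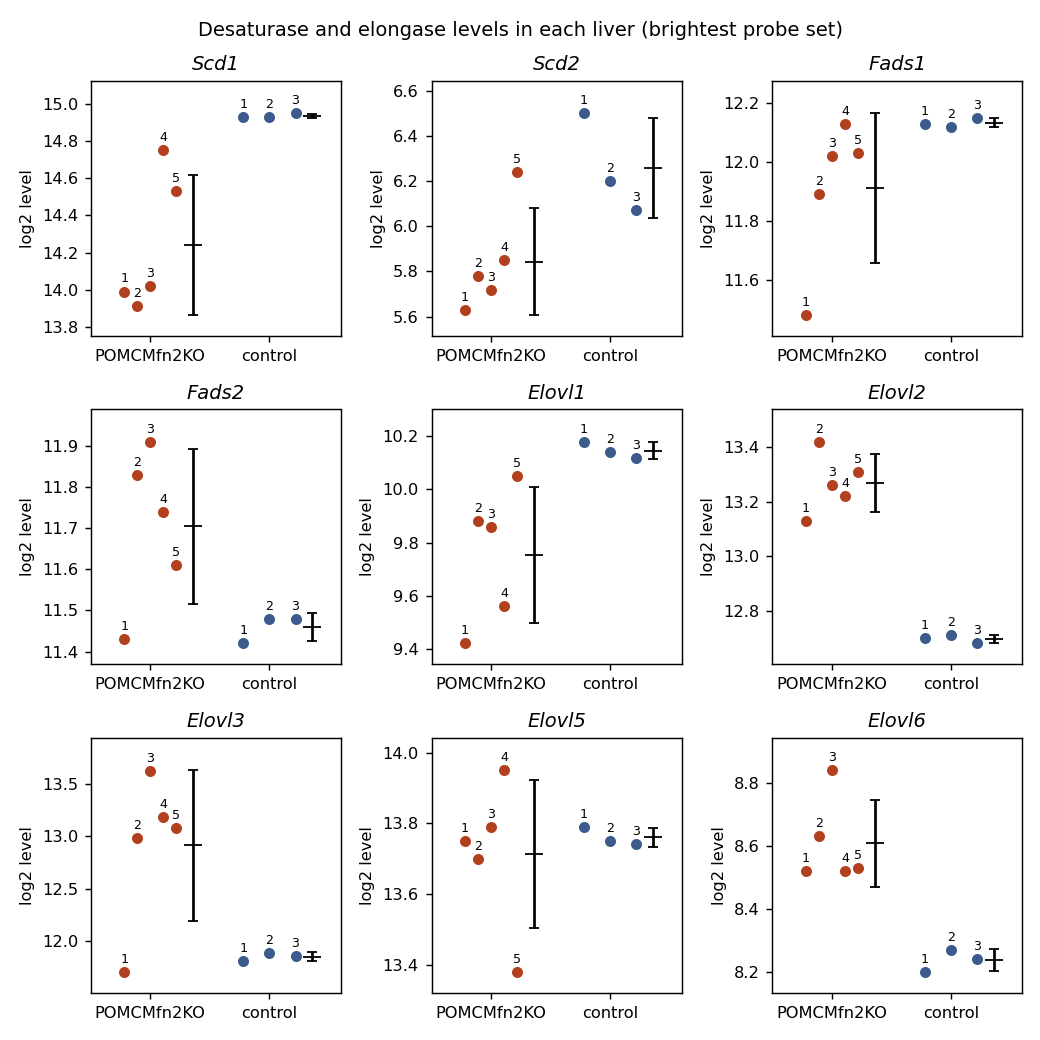
Log2 level of the brightest probe set of each of the 9 genes in every liver, with POMCMfn2KO at left and control at right of each panel. Points are single livers numbered by replicate, and bars show the mean and SD (n = 5 POMCMfn2KO, n = 3 control). The y axes differ between panels and do not start at 0. Elovl2 and Elovl6 lie above all controls in every POMCMfn2KO liver, Scd1 and Elovl1 lie below, and the Elovl3 value of POMCMfn2KO 1 sits beside the controls.

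Stearoyl-CoA desaturase 1, the main enzyme of oleate and palmitoleate synthesis in liver and a known target of SREBP1c and LXR, fell. On its brighter probe set, Scd1 was at 13.99, 13.91, 14.02, 14.75 and 14.53 in POMCMfn2KO livers 1 to 5, against 14.93, 14.93 and 14.95 in the controls. All POMCMfn2KO values lay below all control values, with livers 1 to 3 lowest and liver 4 closest to the controls. The mean was 14.24 ± 0.38 in POMCMfn2KO and 14.94 ± 0.01 in controls (SD, n = 5 and n = 3), a change of -0.70 (1.62-fold lower, 95% interval -1.12 to -0.28, adjusted p = 0.0327). The dimmer probe set of Scd1 gave a larger change. It was at 7.45, 7.23, 7.57, 9.59 and 8.74 in POMCMfn2KO livers 1 to 5, against 10.46, 10.57 and 10.45 in the controls. That is a change of -2.38 (5.19-fold lower, 95% interval -3.46 to -1.29, adjusted p = 0.0126 over all probe sets), and the 5 POMCMfn2KO livers had the same order on both probe sets, with 2 lowest and 4 highest. The brighter probe set has a mean level above that of all but a few probe sets (99.91% lie at or below it) and comes close to the array maxima of 15.37 to 15.40, whereas the dimmer one lies at 87.56%. The part of signal compression in the gap between the 2 probe sets was not tested. The size of the fall is uncertain, and the 2 values do not bound it.

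The call of Scd1 on its brighter probe set was lost without any single control (adjusted p up to 0.107), without POMCMfn2KO 2 (0.0634) or 3 (0.0718), and without both (-0.51, adjusted p = 0.139). The dimmer probe set also lost its call without any single control (adjusted p up to 0.0578) and without POMCMfn2KO 2 and 3 together (-1.90, adjusted p = 0.0676). Of the livers not high in acinar transcripts, POMCMfn2KO 1 was as low in Scd1 as arrays 2 and 3 on both probe sets. POMCMfn2KO 4 and 5, also not high in acinar transcripts, were closest to the controls on both. The part of acinar RNA in the Scd1 values was not tested. Adipocytes also express Scd1 strongly. The 8 adipocyte markers matched averaged 6.60 to 7.10 in POMCMfn2KO and 6.88 to 6.91 in controls, and 5 of them were dim (Adipoq, Lep, Ucp1, Cox7a1 and Nnat). Of the 3 tested, 1 passed: Fabp4, a fatty acid binding protein gene, rose by 0.48 (adjusted p = 0.0128), whereas Car3, also expressed by hepatocytes, differed by -1.31 (adjusted p = 0.0533) and Retn by -0.03 (adjusted p = 0.907). The dim Adipoq was at 4.85 to 6.46 in POMCMfn2KO and 5.17 to 5.37 in controls, highest in POMCMfn2KO 4. The part of adipocyte RNA in the Scd1 values was not tested.

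Scd2, the desaturase isoform known mainly from brain and from liver before weaning, was near background. Its brightest probe set was at 5.63, 5.78, 5.72, 5.85 and 6.24 in POMCMfn2KO livers 1 to 5, against 6.50, 6.20 and 6.07 in the controls. Only POMCMfn2KO 5 overlapped the controls. The change was -0.42 (95% interval -0.74 to -0.09, adjusted p = 0.0746) and did not pass. It passed without POMCMfn2KO 5 (-0.52, adjusted p = 0.0176) and with array weights by genotype (0.0470). The other Scd2 probe sets were dim, at means of 5.14 and 4.30, and differed by -0.02 and -0.01. The neighbouring genes of the cluster lie in the order Scd3, Scd2, Scd4, Scd1 in RefSeq, and Scd3 did not pass either (-0.14, adjusted p = 0.261).

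The front-end desaturases Fads1 and Fads2, adjacent genes that act in turn on the way to arachidonic acid, did not pass on their brightest probe sets. Fads1, the delta-5 desaturase, was at 11.48, 11.89, 12.02, 12.13 and 12.03 in POMCMfn2KO livers 1 to 5, against 12.13, 12.12 and 12.15 in the controls. POMCMfn2KO 1 was lowest and liver 4 stood within the control values (-0.22, 95% interval -0.52 to 0.08, adjusted p = 0.279). A dimmer Fads1 probe set gave -0.02. Fads2, the delta-6 desaturase, was at 11.43, 11.83, 11.91, 11.74 and 11.61 in POMCMfn2KO livers 1 to 5, against 11.42, 11.48 and 11.48 in the controls. In livers 2 to 5 it was higher than in all controls, and liver 1 fell among them (0.24, 95% interval 0.01 to 0.48, adjusted p = 0.136). Without POMCMfn2KO 1, Fads2 passed (0.31, adjusted p = 0.0243).

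The other probe sets of Fads2 disagreed. The next brightest gave 0.09 (adjusted p = 0.735). The third, at 9.73, 9.95, 9.97, 9.76 and 9.70 in POMCMfn2KO livers 1 to 5 and at 9.48, 9.36 and 9.45 in the controls, did not overlap between the groups and rose by 0.39 (adjusted p = 0.0156). Its identifier ends in _x_at, the manufacturer's mark for probes that may match other transcripts, and its call was lost without any single control (adjusted p up to 0.0792) and without POMCMfn2KO 2 and 3 (0.0749). The within-array difference Fads1 minus Fads2 changed by -0.47 between POMCMfn2KO and control livers (exact permutation test over 56 splits, 2-sided, p = 0.0357, adjusted over 4 such pairs 0.0714, smallest p possible 0.0179). The pair therefore did not pass after adjustment.

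Elovl2, the elongase of long polyunsaturated fatty acids that is needed to make docosahexaenoic acid, rose with the lowest p of the 9 genes. It was at 13.13, 13.42, 13.26, 13.22 and 13.31 in POMCMfn2KO livers 1 to 5, against 12.70, 12.71 and 12.68 in the controls. Every POMCMfn2KO liver exceeded every control, by a margin larger than the spread in either group. The mean was 13.27 ± 0.11 in POMCMfn2KO and 12.69 ± 0.02 in controls (SD, n = 5 and n = 3), a change of 0.57 (1.49-fold higher, 95% interval 0.41 to 0.74, adjusted p = 0.00173, rank 151 by p among the genes tested). It kept its call without any 1 array and without POMCMfn2KO 2 and 3 together, with an adjusted p of 0.0157 at most over all alternatives. It has 1 probe set.

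Elovl6, which lengthens palmitate to stearate and is a known SREBP1c target, rose as well. It was at 8.52, 8.63, 8.84, 8.52 and 8.53 in POMCMfn2KO livers 1 to 5, against 8.20, 8.27 and 8.24 in the controls. The groups did not overlap, and liver 3 was highest (0.37, 1.30-fold higher, 95% interval 0.18 to 0.56, adjusted p = 0.0170). The second probe set of Elovl6 gave 0.24 (adjusted p = 0.189), with POMCMfn2KO 5 among the controls, and the third was dim and differed by -0.09. The call of Elovl6 was lost without any single control (adjusted p up to 0.0772), with the mean of all its probe sets (0.17, adjusted p = 0.211) and without POMCMfn2KO 2 and 3 (0.29, adjusted p = 0.0571).

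Because Elovl2 and Elovl6 rose together, the 250 bases before their annotated starts are shown with those of Elovl5, which did not pass the test, from RefSeq on GRCm38.p6. Capitals mark matches, on either strand, to any of 8 motifs searched. The windows are chr13:41220404-41220653 on the minus strand for Elovl2, chr3:129532136-129532385 on the plus strand for Elovl6 and chr9:77917115-77917364 on the plus strand for Elovl5.
Elovl2: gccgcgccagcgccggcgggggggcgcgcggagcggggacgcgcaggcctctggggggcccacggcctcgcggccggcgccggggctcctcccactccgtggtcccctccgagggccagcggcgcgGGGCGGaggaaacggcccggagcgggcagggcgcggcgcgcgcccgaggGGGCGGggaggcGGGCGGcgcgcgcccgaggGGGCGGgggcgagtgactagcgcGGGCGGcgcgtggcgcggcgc
Elovl6: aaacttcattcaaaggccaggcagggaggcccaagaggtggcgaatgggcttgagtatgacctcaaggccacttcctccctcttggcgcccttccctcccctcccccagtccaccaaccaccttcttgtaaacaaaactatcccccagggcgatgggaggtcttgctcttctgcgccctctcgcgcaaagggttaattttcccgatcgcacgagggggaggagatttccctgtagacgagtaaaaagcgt
Elovl5: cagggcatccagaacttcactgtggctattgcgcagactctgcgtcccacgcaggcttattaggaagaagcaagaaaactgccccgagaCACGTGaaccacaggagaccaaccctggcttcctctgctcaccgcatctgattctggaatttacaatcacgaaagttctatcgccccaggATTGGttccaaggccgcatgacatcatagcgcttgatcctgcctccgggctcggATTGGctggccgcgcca
The Elovl2 window, with 87.2% G and C, holds 5 GC boxes (GGGCGG, found in 32.7% of 32841 windows of this length). The shares given here are of windows with at least 1 match. Elovl2 has a second window, chr13:41220163-41220412, before another annotated start, which holds no GC box and none of the other motifs. The Elovl5 window holds 1 E-box (CACGTG, 6.02% of windows) and 2 NF-Y boxes (CCAAT, shown as its reverse complement, 33.9%). None of the motifs was found in the Elovl6 window, including the sterol element TCACNCCAC (1.05% of windows), the repeats of AGGTCA spaced by 1 base (DR1, 0.0335%) and by 4 bases (DR4, 0.0152%), which have that unit in common, the STAT motif TTCNNNGAA (7.02%) and the D-box TTATGTAA (0.819%). No matches overlapped in these windows. A match is a description of letters, and these windows show no motif common to Elovl2 and Elovl6. Windows were matched for 5 of the 9 genes, also for Elovl1 and Fads2. An Elovl1 window, chr4:118427843-118428092, likewise holds 5 GC boxes, with 1 NF-Y box. The other Elovl1 window holds 2 GC boxes and the Fads2 window 1.

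Elovl3, which makes saturated and monounsaturated very long chains and is known in mouse liver for a daily rhythm and for higher levels in males, had the largest change of the 9 genes on brightest probe sets but did not pass. It was at 11.71, 12.98, 13.62, 13.18 and 13.08 in POMCMfn2KO livers 1 to 5, against 11.81, 11.89 and 11.86 in the controls. POMCMfn2KO 1 was below all controls and the other POMCMfn2KO livers were all above them. The mean was 12.92 ± 0.72 in POMCMfn2KO and 11.85 ± 0.04 in controls (SD, n = 5 and n = 3), a change of 1.06 (2.09-fold higher, 95% interval 0.28 to 1.84, adjusted p = 0.0621). Without POMCMfn2KO 1 the change was 1.36 (adjusted p = 0.000683), and with array weights by genotype it passed as well (0.0147). The gap between liver 1 and the rest did not exceed the limit of Dixon's outlier test.

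In POMCMfn2KO 1, 6 of 8 male-biased liver genes tested lay above all controls and 2 below. Among the clock genes tested, 5 lay above all controls in that liver and 9 below. Of 8 male-biased liver genes tested, 6 rose and none fell, against 7.02% and 10.9% of all genes. Their mean level was 11.40 in POMCMfn2KO 1, 11.98 to 12.41 in the other POMCMfn2KO livers and 10.54 to 10.64 in controls. In POMCMfn2KO 1 the same 6 genes (Slco1a1, C6, C8b, Cyp7b1, Egfr and Ugt2b38) lay above all controls, while Hsd3b5 and Cyp4a12a lay below them. Hsd3b5 was at 8.68 in POMCMfn2KO 1, 11.03 to 12.2 in the other POMCMfn2KO livers and 8.96 to 9.14 in controls. Egfr, the epidermal growth factor receptor gene, was at 12.05 in POMCMfn2KO 1, 11.38 to 12.14 in the other POMCMfn2KO livers and 9.75 to 9.80 in controls. Of 15 clock genes tested, 4 rose and 8 fell, against the same shares of all genes. The male-biased and clock lists were chosen with earlier results of these data known, so these counts do not test the lists. Dbp, a clock output factor, was at 8.25 in POMCMfn2KO 1, 7.70 to 7.90 in the other POMCMfn2KO livers and 10.01 to 10.14 in controls. Of the sex chromosome genes, Xist was at 5.26 to 5.51 in POMCMfn2KO and 5.24 to 5.43 in controls, and Eif2s3y averaged 9.90 ± 0.06 in POMCMfn2KO and 9.89 ± 0.04 in controls (SD, n = 5 and n = 3). Xist was thus dim and the Y-linked Eif2s3y well above the dim level in every liver, the pattern of male mice in both groups. The part of male-biased or clock gene expression in the values of Elovl3, or of the other genes and lists described here, was not tested. Nor was the part of collection time or fasting state, which the labels do not give. By the root mean square difference of centred log2 levels over the 8 arrays, the genes most like Elovl3 were Gm16551 (0.275), the organic anion transporter gene Slco1a1 (0.300) and Crem (0.333), and those most like Scd1 were Spc24 (0.0722), Gsta3 (0.102) and Rdh9 (0.107).

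The remaining elongases did not pass. Elovl1, which makes very long saturated chains for ceramides, was at 9.42, 9.88, 9.86, 9.56 and 10.05 in POMCMfn2KO livers 1 to 5, against 10.18, 10.14 and 10.12 in the controls. All POMCMfn2KO livers were lower, with 1 and 4 lowest (-0.40, 95% interval -0.69 to -0.10, adjusted p = 0.0688). Of the other Elovl1 probe sets, the next brightest passed over all probe sets (-0.37, adjusted p = 0.0387), and the remaining pair gave -0.23 and -0.04. That call was lost without any single control (adjusted p up to 0.156), without POMCMfn2KO 2, 3 or 4 (up to 0.0716) and without POMCMfn2KO 2 and 3 together (0.109), and Elovl1 passed on its brightest probe set without POMCMfn2KO 5 (-0.47, adjusted p = 0.0309). The brightest and the next brightest Elovl1 probe sets both carry the _x_at mark.

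Elovl5, the elongase of polyunsaturated fatty acids of the omega-3 and omega-6 series, differed little. It was at 13.75, 13.70, 13.79, 13.95 and 13.38 in POMCMfn2KO livers 1 to 5, against 13.79, 13.75 and 13.74 in the controls. The groups overlapped, with liver 4 above and liver 5 below all controls (-0.05, 95% interval -0.30 to 0.21, adjusted p = 0.815), and its second probe set gave -0.05. The within-array difference Elovl6 minus Elovl5 was higher by 0.42 in POMCMfn2KO (exact permutation p = 0.0357, adjusted over 4 pairs 0.0714). The corresponding values were 0.49 for Elovl3 minus Elovl2 (adjusted 0.286) and -0.28 for Scd1 minus Scd2 (adjusted 0.286), and none of the 4 passed. These values rest on brightest probe sets, and the size for Scd1 minus Scd2 depended on that choice. Averaging each gene over its probe sets gave -1.385 for this pair (exact permutation, adjusted p = 0.0714). It gave smaller differences for Elovl6 minus Elovl5 (0.22) and Fads1 minus Fads2 (-0.36), and 0.49 again for Elovl3 minus Elovl2. No pair passed that way either.

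**Figure D2:**
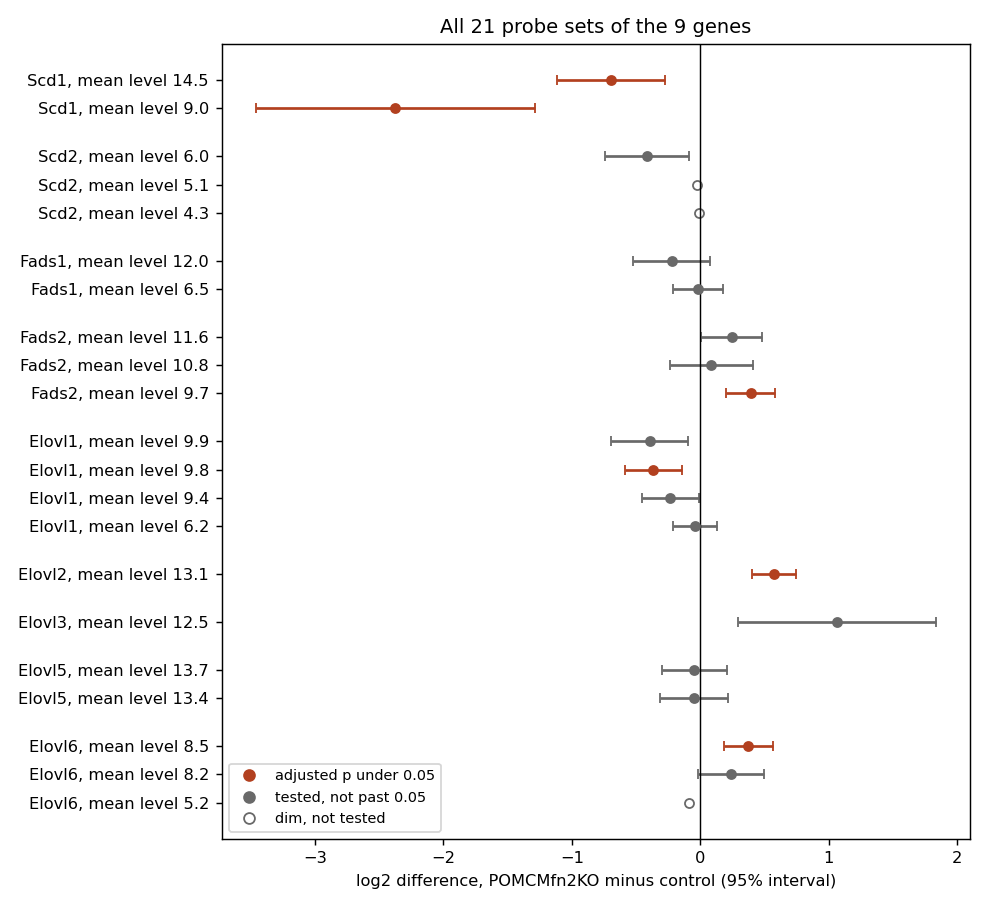
Log2 difference, POMCMfn2KO minus control, for all 21 probe sets of the 9 genes, from brightest to dimmest within each gene, with 95% intervals from the fit over all probe sets. Red points passed adjusted p under 0.05, and 3 open points were dim and not tested. The probe sets of Scd1 lie at -0.70 and -2.38, and those of Fads2 between 0.09 and 0.39.

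Over all 21 probe sets, 18 were bright enough to be tested and 3 were dim, 2 of Scd2 and 1 of Elovl6. Of the 18, 3 rose (Elovl2, 1 of Elovl6 and 1 of Fads2), 3 fell (both of Scd1 and 1 of Elovl1) and 12 did not pass, where 6.86% of the 22519 probe sets tested rose and 8.47% fell. No gene had probe sets called in opposite directions. Of the groups' values, 3 probe sets did not overlap on the higher side and 4 on the lower side, against 12.5% and 13.8% of all probe sets tested, 26.3% in all.

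**Figure D3:**
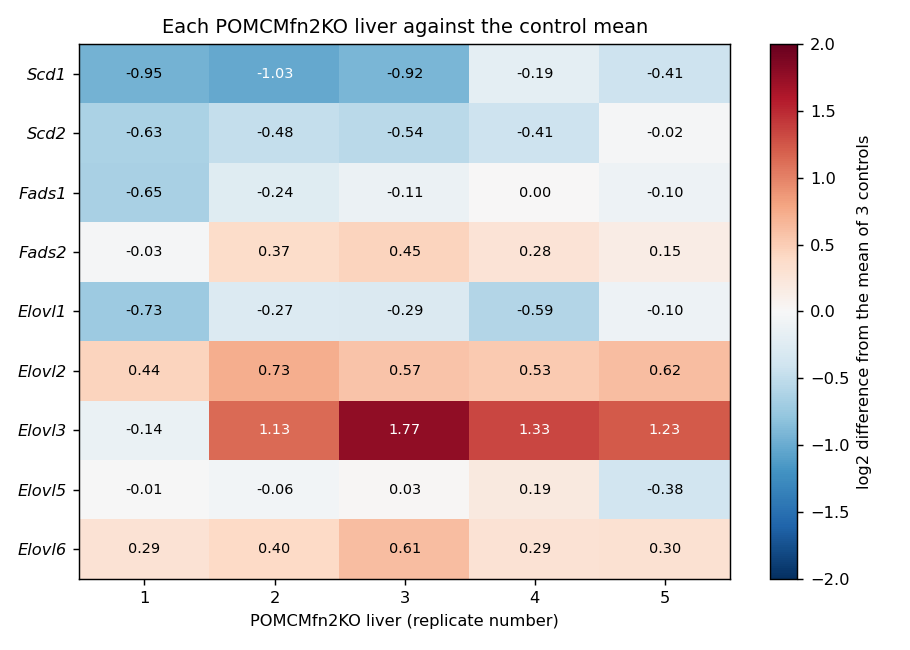
Log2 difference of each POMCMfn2KO liver (columns, replicates 1 to 5) from the mean of the 3 controls, for the brightest probe set of each gene (rows); red is higher and blue is lower than the controls. Elovl2 and Elovl6 are above 0 in all 5 livers, Scd1, Scd2 and Elovl1 are below 0 in all 5, and Elovl3 runs from -0.14 in liver 1 to 1.77 in liver 3.

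The POMCMfn2KO livers differed among themselves more than the controls did. The SD was larger in POMCMfn2KO for 9 of the 9 genes, with a median of 0.236 in POMCMfn2KO and 0.0306 in controls. Among all genes tested it was larger in POMCMfn2KO for 80.0%, with medians of 0.135 and 0.0686. POMCMfn2KO 1 was lowest of its group in Scd2, Fads1, Fads2, Elovl1, Elovl2 and Elovl3 and second lowest in Scd1. POMCMfn2KO 4 and 5 were closest to the controls in Scd1, and 5 also in Scd2 and Elovl1. POMCMfn2KO 3 was highest in Fads2, Elovl3 and Elovl6.

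Of 60 tested genes that work with these enzymes, 14 fell and 2 rose. The counts of each list below stand against 10.9% of all genes tested that fell and 7.02% that rose. These lists were chosen with earlier results of these data known, so the counts do not test the lists. Among other desaturases and elongases, 4 were bright enough to test, and 1 of them, Fads6, a desaturase-like gene of unsettled function, fell by 0.55 (adjusted p = 0.00460), and its second probe set gave -0.53. Fads3, next to Fads2, did not pass (0.21, adjusted p = 0.147). Of 11 genes of the elongation cycle and of electron supply to desaturases, 3 fell and none rose. Hsd17b12, the ketoacyl-CoA reductase that acts after every elongase, fell by 0.62 (adjusted p = 0.0327), Cyb5r3, a reductase that feeds electrons to cytochrome b5, by 0.63 (adjusted p = 0.0214) and its relative Cyb5r4 by 0.27 (adjusted p = 0.0200). The other probe sets of Cyb5r3 gave -0.7, -0.33 and, for the dimmest, 0.06. Tecr, which completes the cycle (-0.35, adjusted p = 0.0862), and Cyb5a, the electron donor itself (-0.20, adjusted p = 0.0985), did not pass. Both passed without POMCMfn2KO 4 (Tecr at an adjusted p of 0.00667, Cyb5a at 0.0168) and with array weights (0.0300 and 0.0427).

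Of 17 regulators, Srebf1, the gene of SREBP1, fell by 1.52 (adjusted p = 0.000182) and Pparg by 1.05 (adjusted p = 0.00324), and none rose. Srebf1 was at 9.05 ± 0.21 in POMCMfn2KO and 10.56 ± 0.15 in controls (SD, n = 5 and n = 3). Of the other regulators, Mlxipl, the gene of the carbohydrate-response factor ChREBP (0.34, adjusted p = 0.266), Nr1h3, the gene of LXRa (-0.03, 0.819), Ppara (0.21, 0.350), and the SREBP-retaining Insig1 (-0.35, 0.233) and Insig2 (0.30, 0.228) did not pass. The other probe sets of Insig2 gave 0.66 and 0.26, and those of Ppara gave 0.13 and 0.37. Mlxipl passed without POMCMfn2KO 1 (0.49, adjusted p = 0.0228). Scd1 and Elovl6, both known targets of SREBP1c, changed with opposite signs.

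Among 15 genes of acyl-CoA supply, 5 fell and 1 rose. Thrsp, a gene that rises with lipogenesis, fell by 2.03 (adjusted p = 0.00160), Acly, which makes cytosolic acetyl-CoA, fell by 0.56 (0.00388), and Acss2, an acetyl-CoA synthetase, fell by 0.57 (0.0244). The acyl-CoA synthetase gene Slc27a4 (-0.25, 0.0205) and the mitochondrial malonyl transferase gene Mcat (-0.27, 0.0464) fell too. Slc27a2, which activates very long-chain fatty acids, rose by 0.22 (adjusted p = 0.0267). Fasn, the fatty acid synthase that makes palmitate (-0.05, adjusted p = 0.803), and Acaca, which makes malonyl-CoA (-0.19, 0.246), did not pass. The next brightest probe set of Thrsp gave -1.61, and its dimmest gave -0.04.

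Of 13 genes that use the products, 3 fell and 1 rose. Lpcat3, which puts polyunsaturated chains into phospholipids, fell by 0.39 (adjusted p = 0.00598), Cers2, the ceramide synthase for very long chains, by 0.44 (0.0105) and Dgat2, the last step of triglyceride synthesis, by 0.35 (0.0199), and Cyp4a14, a fatty acid omega-hydroxylase, rose by 0.57 (adjusted p = 0.00595). The median change was -0.13 for the other desaturases and elongases, -0.22 for the elongation cycle, 0.03 for the regulators, -0.19 for acyl-CoA supply and -0.04 for the use of products, against -0.02 over all genes.

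Fads6, Srebf1, Pparg, Thrsp, Acly, Lpcat3 and Cyp4a14 kept their calls without any 1 array and without POMCMfn2KO 2 and 3. Hsd17b12, Cyb5r3, Cyb5r4, Acss2, Slc27a4, Mcat, Slc27a2 and Dgat2 lost theirs without any single control, and Cers2 without control 1 or 2. All 9 of these also lost it without POMCMfn2KO 2 and 3, and Hsd17b12, Acss2, Mcat and Slc27a2 without POMCMfn2KO 2 alone. Hsd17b12 was also lost without POMCMfn2KO 5, Slc27a2 without 3, and Mcat without 1, 3 or 5, after quantile normalization and with no dim filter. The highest adjusted p among these was 0.159, for Mcat.

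**Figure D4:**
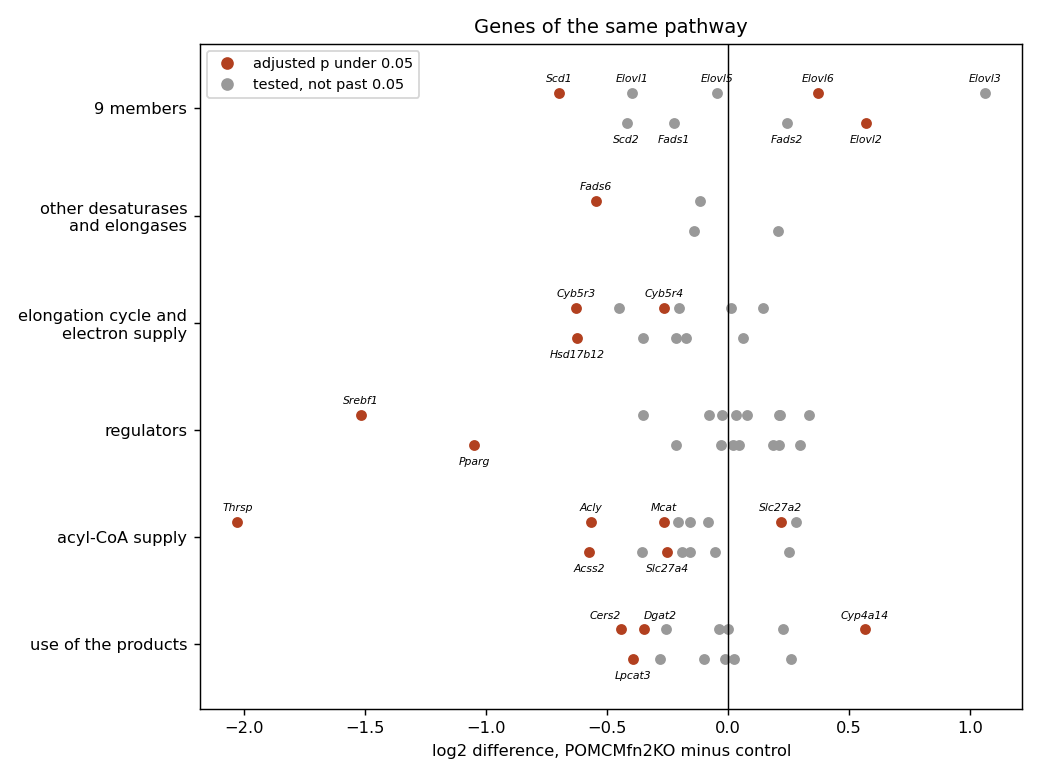
Log2 difference, POMCMfn2KO minus control, of each tested gene of the 9 described and of 5 lists of related genes (rows). Red points passed adjusted p under 0.05 and grey points did not. The 9 genes lie on both sides of 0, with Scd1 at -0.70, Elovl6 at 0.37 and Elovl2 at 0.57, while 14 of the 16 red points in the other lists lie below 0.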

How the data were processed

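Per the submitters' processing notes, the authors made the deposited log2 values per probe set by RMA in affy (its version is not given in the sources used here). The median of each array lay between 5.79 and 5.81, and the values were used as they stand. Precision is set by the number of arrays, 5 and 3. Of 45101 probe sets, 64 were controls, 34945 had 1 gene symbol in the platform annotation, 932 had several and 9160 had none.

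The gene test kept the probe set with the highest mean per gene, dropped genes below 5.80 (the median level once control probe sets were removed) and fitted POMCMfn2KO minus control with limma 3.58.1 in R 4.3.3 (moderated variance, no trend), 2-sided, with Benjamini-Hochberg adjustment over 11986 genes. The probe set test did the same over 22519 probe sets. On simulated data of the gene test's size, 61% of 100 genes changed by 0.5 and 96% of 100 changed by 1 were recovered, with 10 false calls. The simulation gave a gene the same SD in both groups and changed only these genes. In the data the SD was larger in POMCMfn2KO for 80.0% of genes tested, so these figures do not give the recovery or false calls of the test itself. The 4 pairs of genes were compared by exact permutation.

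The 9 genes, the lists (185 entries, 163 matched) and the tests were chosen with earlier results of these data known. Genes named from the lists were up to 6 per list past the test, 15 chosen for their role and Mfn2; for the other lists, counts are given, and single marker, male-biased and clock genes were picked with their values in view. Same-numbered arrays of the groups did not deviate together (correlations 0.0426, 0.0369 and -0.0327), so the numbers were not used as pairs. Alternatives used no or a stricter dim filter, the mean of probe sets, median centring or quantile scaling, a trended variance, array weights, a threshold of 0.01, a replicate block and fewer arrays. Python 3.11.15 with matplotlib 3.10.9 made the plots.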

Additional observations from a re-analysis of the deposited data

How the results depend on the processing

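Elovl2 kept its call under every alternative; Scd1 and Elovl6 depended on single arrays, as given above. Among the 9 genes 2 rose and 1 fell. Leaving out 1 array gave 1 to 4 that rose and 0 to 3 that fell in the gene test, and 1 to 5 and 0 to 5 probe sets against 3 and 3. With POMCMfn2KO 2 and 3 both left out, or at a threshold of 0.01, 1 gene and 1 probe set rose and 0 fell; with the mean of all probe sets 1 gene rose, and with array weights by genotype 3 fell. With replicate numbers as a block 2 genes fell (Scd2 at -0.55, adjusted p = 0.0369, joined Scd1), and 715 genes rose and 1176 fell over all genes. The call of Elovl1's second probe set was lost with the block (adjusted p = 0.0716), as were those of Cyb5r4 (0.0739), Slc27a2 (0.0684), Slc27a4 (0.0601) and Mcat (0.0581), while Tecr passed (-0.40, adjusted p = 0.0374). POMCMfn2KO 4 and 5 have no control of the same number, so they did not contribute to the differences in the block fit. POMCMfn2KO 5 is the liver that overlapped the controls in Scd2.

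Over all genes, 842 rose and 1310 fell. Leaving out 1 array gave 287 to 1159 and 492 to 1649; POMCMfn2KO 2 and 3 left out, 235 and 410; the threshold of 0.01, 253 and 449; array weights, 1323 that rose. Over all probe sets 1545 rose and 1907 fell, with 465 to 2143 and 615 to 2446 when 1 array was left out, 391 and 577 without POMCMfn2KO 2 and 3, 404 and 600 at 0.01, and 2448 that rose with array weights.

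Signs turned only for values near 0. Elovl5 became 0.00677 after quantile normalization. When 1 array was left out, Elovl5 ran from -0.105 to 0.0377 (-0.104 to 0.0411 for its second probe set), Fasn from -0.141 to 0.0126, Nr1h3 from -0.0510 to 0.00352 and the dimmer Fads1 probe set from -0.0582 to 0.0156. Without POMCMfn2KO 2 and 3, Fasn became 0.0291 and that Fads1 probe set 0.0539. With the replicate block the dimmest Elovl1 probe set became 0.00489 and the second Fads2 probe set -0.0250. The cause of these differences was not tested, apart from the smaller number of arrays in each fit that leaves some out.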
